A study of Mus musculus with 12 samples.

Results

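DNA methylation was examined at 9 chromaffin genes of the mouse, which together make, store, retake and package catecholamines. They are *Th*, *Ddc*, *Dbh* and *Pnmt* (synthesis), *Slc18a1* and *Slc18a2* (vesicular uptake), *Slc6a2* (uptake from outside the cell), and *Chga* and *Chgb* (granule proteins). They were chosen by name as lineage genes of paraganglioma and make up 9 of the 33543 autosomal genes with a known strand. For each gene, the CpG cytosines listed in at least 10 of 12 libraries were taken in a window around the transcription start site that reached 1500 bp upstream and 500 bp downstream (promoter), and separately in the rest of the annotated gene (gene body). This gave 110 promoter cytosines and 118 gene body cytosines, of 1201548 autosomal cytosines listed in at least 10 libraries.

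The libraries were made by reduced representation bisulfite sequencing (RRBS), in which DNA is cut at sites that hold a CpG and treated with bisulfite, so that unmethylated cytosines are read as T. The cells were 2 immortalized mouse embryonic fibroblast (iMEF) lines, 1 experimental and 1 control, sampled before treatment (day 0) and after 5, 9, 12, 16 and 20 days, with 1 library per line and day. Both lines carried the reverse tetracycline transactivator at 1 *Rosa26* allele (R26M2rtTA/+) and a tetracycline-inducible Cre (TetOcre). The experimental line had both *Sdhc* alleles floxed (Sdhc fl/fl) and the control line had 1 floxed and 1 wild type allele (Sdhc fl/wt). *Sdhc* encodes a membrane subunit of succinate dehydrogenase. Doxycycline at 1 microgram/mL was given to both lines, so the control also has a floxed allele exposed to Cre, and day 0 was taken before doxycycline in both. The comparison set the 5 experimental libraries of days 5 to 20 (experimental series) against the 6 control libraries of days 0 to 20 (control series). The libraries of a series are time points of 1 cell line and not separate cultures or animals, so the p-values measure the spread between time points, and the line and the genotype cannot be told apart.

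The value of each cytosine is its beta value, the share of reads called methylated, from 0 to 1. Read counts were not part of the files used here, so the depth of each value is unknown and no coverage minimum or interval could be applied. The libraries listed from 932307 to 1716381 cytosines, the fewest in control day 12, and over the cytosines listed in all 12 libraries the mean beta value ran from 0.427 to 0.434 for control libraries and from 0.434 to 0.447 for experimental ones. No pair of libraries held the same values, with a mean absolute difference per cytosine of at least 0.0964. The files hold methylation only and do not show whether *Sdhc* was lost or whether any gene was expressed. Promoter methylation of cell type markers did not set the cell type apart, since the promoter was under 0.2 in the control series for 4 of 8 fibroblast, 1 of 3 epithelial and 4 of 6 sympathoadrenal markers that could be tested. Among the fibroblast markers, *Vim*, which encodes vimentin, had 0.00157 in the control series and *Fn1*, which encodes fibronectin, 0.00207, while *Col1a2*, a collagen gene, had 0.794. None of these marker promoters passed the threshold between the series. The series did not overlap at 1 of 8 fibroblast, 0 of 3 epithelial and 1 of 6 sympathoadrenal marker promoters, against 4.37% of all promoters. These were *Prrx1*, with a mean of 0.218 in the experimental against 0.657 in the control series, and *Gata3*, with 0.302 and 0.189.

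Chromaffin cells of the adrenal medulla and paraganglia convert tyrosine to L-DOPA, dopamine, noradrenaline and, where PNMT is present, adrenaline. The amines are pumped into dense core granules together with chromogranins and are released by regulated exocytosis. Fibroblasts do not make catecholamines. Promoters rich in CpG generally carry little methylation, and methylation there is linked to low transcription. Pheochromocytoma and paraganglioma arise from chromaffin and related cells, and loss of a succinate dehydrogenase subunit is a known cause.

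The sequences around 4 of the start sites are given because they show which CpG letters the values of *Chga*, *Slc18a2* and *Chgb* come from, beside *Th*, which has no value. Each runs from 250 bases before to 50 bases after the start site, in the direction of transcription, from RefSeq (GRCm38.p6, the assembly named mm10 by the study). RefSeq windows matched 6 of the 9 genes, and those of *Pnmt*, *Slc18a1* and *Slc6a2* were not used here. Capitals mark the cytosines listed in at least 10 libraries, as C where the cytosine is on the printed strand and as G where it is on the other strand. The *Chga* window is chr12:102554691-102554990 (plus strand), that of *Slc18a2* chr19:59260628-59260927 (plus), that of *Chgb* chr2:132781392-132781691 (plus) and that of *Th* chr7:142899946-142900245 (minus).
Chga: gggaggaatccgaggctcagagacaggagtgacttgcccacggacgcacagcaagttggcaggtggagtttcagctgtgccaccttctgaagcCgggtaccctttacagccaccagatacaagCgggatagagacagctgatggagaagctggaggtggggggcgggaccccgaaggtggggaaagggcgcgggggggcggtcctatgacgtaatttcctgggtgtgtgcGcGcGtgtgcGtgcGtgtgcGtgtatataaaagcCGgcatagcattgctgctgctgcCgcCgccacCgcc
Slc18a2: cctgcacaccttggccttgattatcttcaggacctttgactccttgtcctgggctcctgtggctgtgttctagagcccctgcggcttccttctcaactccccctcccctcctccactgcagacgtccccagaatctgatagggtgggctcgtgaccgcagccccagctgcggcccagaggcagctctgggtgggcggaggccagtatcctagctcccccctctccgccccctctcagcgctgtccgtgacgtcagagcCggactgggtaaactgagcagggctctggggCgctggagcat
Chgb: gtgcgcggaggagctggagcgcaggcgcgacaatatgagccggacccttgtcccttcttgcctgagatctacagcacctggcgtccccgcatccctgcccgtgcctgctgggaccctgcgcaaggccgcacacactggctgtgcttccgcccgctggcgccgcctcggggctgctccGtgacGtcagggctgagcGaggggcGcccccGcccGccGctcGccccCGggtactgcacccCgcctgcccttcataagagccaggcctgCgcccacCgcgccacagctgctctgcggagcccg
Th: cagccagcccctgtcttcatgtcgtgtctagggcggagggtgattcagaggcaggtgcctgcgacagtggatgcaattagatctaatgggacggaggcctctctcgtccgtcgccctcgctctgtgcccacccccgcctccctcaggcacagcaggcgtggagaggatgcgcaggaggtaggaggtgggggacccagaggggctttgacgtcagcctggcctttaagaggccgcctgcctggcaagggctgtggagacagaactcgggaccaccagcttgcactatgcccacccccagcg
The *Chga* and *Chgb* windows hold 21 and 31 CpG and each had 13 listed cytosines, and that of *Slc18a2* holds 12 CpG with 2 listed. The *Th* window holds 15 CpG, and none was listed in any library. The windows of *Chga* and *Chgb* have 2 CCGG each and that of *Slc18a2* has 1, whereas *Th*, *Dbh* and both annotated starts of *Ddc* have none. CCGG occurs in 53.5% of the 31396 RefSeq windows. The median window holds 7 CpG, against 2 for *Dbh*, and 2 and 5 for the starts of *Ddc*. All 4 printed windows have 1 match to TGACGTNA, searched on both strands after the sequences had been seen, and the windows of *Dbh* and of both starts of *Ddc* have 0. The motif covers TGACGTCA, the cyclic AMP response element, and variants of it that differ at base N. It reads TGACGTAA in *Chga*, with its first base at -44, and TGACGTCA in *Chgb* at -72, *Th* at -45 and *Slc18a2* at -4, where the start site is position 0. This motif occurs in 2.97% of all windows, and TGACGTCA in 1.83%. Its CpG was listed only in *Chgb*, where the cytosine at -68 had a beta value of 0.143 at day 12 and 0.111 at day 16 in the experimental line and 0 in each of the other 10 libraries.

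None of the 6 chromaffin promoters that could be tested passed the threshold between the series, and none of the 8 gene bodies did. The test was limma on M-values, log2((beta + 0.01)/(1 − beta + 0.01)), fitted over all 15804 autosomal promoters or 18760 gene bodies with at least 3 cytosines and adjusted by Benjamini-Hochberg over all of them, with 0.05 as the threshold. In that fit 2.03% of all promoters and 2.21% of all gene bodies passed, so 0 of 6 and 0 of 8 are close to the background. The *Chga* promoter came nearest and was the only one of the 14 regions whose series did not overlap, a property that 4.37% of all promoters and 5.02% of all gene bodies had. At an unadjusted p under 0.05, 1 of the 6 promoters and 0 of the 8 gene bodies passed, against 16.6% of all promoters and 16.6% of all gene bodies. Of the 228 cytosines of the chromaffin genes, 103 were higher, 104 lower and 21 equal in the experimental series, and 1 of the 210 that could be tested passed, against 0.477% of all 934971 cytosines tested. That cytosine was higher in the experimental series, as were 0.267% of all cytosines, while 0.21% passed as lower and none of the chromaffin genes' cytosines did. At an unadjusted p under 0.05, 23 of the 210 passed, against 10.6% of all cytosines.

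**Figure D1:**
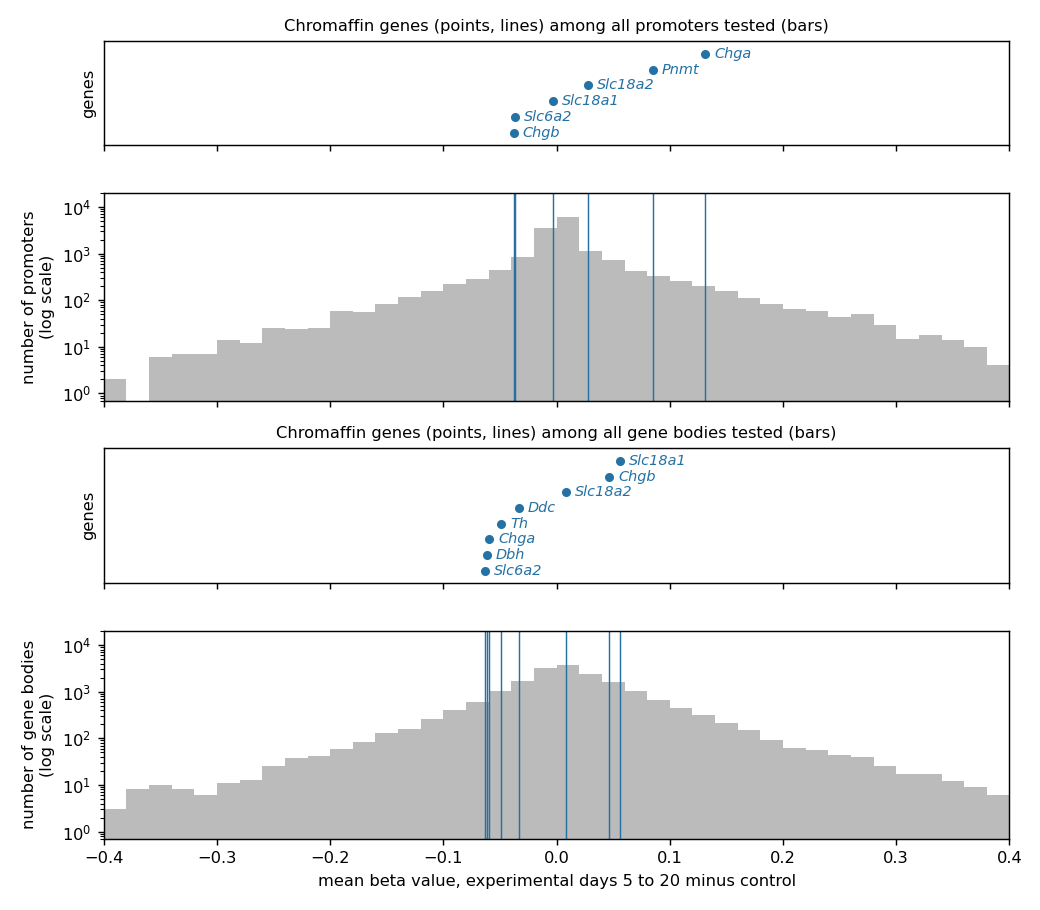
Experimental minus control mean beta value (x axis) of the 6 chromaffin promoters (top) and 8 chromaffin gene bodies (below), each a labelled point and a line, over histograms of all 15804 promoters and 18760 gene bodies tested (y axis, log scale; 24 promoters and 21 gene bodies lie outside the plotted range of 0.4 to either side). *Chga* lies farthest right among the promoters at 0.131, and the gene bodies lie between -0.0631 and 0.0558.

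The first step of catecholamine synthesis is made by tyrosine hydroxylase (*Th*), and the second by DOPA decarboxylase (*Ddc*). Dopamine β-hydroxylase (*Dbh*) turns dopamine into noradrenaline. The promoters of these 3 genes had no cytosine listed in any library, also at the second annotated start of *Ddc* (chr11, 11890408), so RRBS gave no promoter value for them. Promoters with no cytosine in at least 10 libraries made up 48.01% of all promoters and 35.85% of those of protein-coding genes. That is a broader condition than none in any library, whose share was not counted.

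The *Dbh*, *Th* and *Ddc* gene bodies were methylated in both lines, and none passed the threshold between the series. Their mean differences were -0.0619, -0.0491 and -0.0333, where the median absolute difference over all gene bodies was 0.0309. The *Dbh* gene body (17 cytosines, chr2:27166007-27183204) had 0.739, 0.861, 0.690, 0.843 and 0.809 in the experimental series, from day 5 to day 20, and a lowest, median and highest value of 0.802, 0.848 and 0.905 in the control series. The experimental values lay lower on 4 of 5 days, but the series overlapped. The mean was 0.788 ± 0.0722 (SD, n = 5) against 0.850 ± 0.0341 (n = 6), a difference that did not pass (adjusted p = 0.372 by limma). The experimental line was already lower at day 0, with 0.690 against 0.905. The *Dbh* cytosine with the largest difference, at +16747, averaged 0.670 in the experimental against 0.971 in the control series (adjusted p = 0.689 by limma).

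The *Th* gene body (18 cytosines, chr7:142892779-142899495) had 0.618, 0.657, 0.647, 0.536 and 0.624 in the experimental series, within the control range of 0.542 to 0.818 (median 0.641) except for day 16. The highest control value was that of day 12, which listed 11 of the 18 cytosines. The difference did not pass (adjusted p = 0.660 by limma). Within *Th*, the 2 cytosines at +999 to +1044 had a mean of 0.104 in the experimental against 0.0724 in the control series, and 4 cytosines at +3534 to +3548 had 0.781 and 0.816. The cytosine of *Th* with the largest difference, at +3545 (chr7, 142896450), had 0.710, 0.765, 0.500, 0.438 and 0.538 in the experimental series and 0.643, 0.900, 1, 1, 1 and 0.963 in the control series. The series overlapped only through control day 0, and at day 0 the order was the opposite, with 1 in the experimental line (adjusted p = 0.176 by limma, 0.0488 without control day 0, and up to 0.317 over the alternatives).

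The *Ddc* gene body (21 cytosines, chr11:11814101-11897644) had 0.815, 0.888, 0.850, 0.723 and 0.767 in the experimental series and a lowest, median and highest control value of 0.792, 0.833 and 0.907. The series overlapped, and the difference did not pass (adjusted p = 0.685 by limma). The *Ddc* cytosine at +66109 (chr11, 11832035) had 0.615, 0.667, 0.727, 0.545 and 0.667 in the experimental series and 1, 1, 1, 0.809, 1 and 0.936 in the control series. All 5 experimental values lay below all 6 control values, and the day 0 value of the experimental line, 0.769, did so too. The mean difference of -0.313 had an adjusted p of 0.0760 by limma, which ranged from 0.00983 to 0.395 over the alternatives and fell to the lowest of these without control day 12.

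Phenylethanolamine N-methyltransferase (*Pnmt*) methylates noradrenaline to adrenaline and marks the adrenaline-making chromaffin cells. Its promoter (6 cytosines, all from 252 to 376 bases downstream of the start, within chr11:98385123-98387122) was the most methylated of the 6, with 0.384, 0.485, 0.492, 0.381 and 0.294 in the experimental series. The control series ran from 0.0577 to 0.450 with a median of 0.352, and its lowest value was that of day 12. The series overlapped, with means of 0.407 ± 0.0827 (SD, n = 5) and 0.322 ± 0.149 (n = 6) and an adjusted p of 0.594 by limma. Although its mean was higher, the experimental line was higher than the control line on 2 of 5 days and lower on 3. The day 0 libraries had 0.287 and 0.280. With the 5 cytosines that all 12 libraries listed, the means of the experimental and control series were 0.389 and 0.385 (adjusted p = 0.937 by limma). The *Pnmt* gene body had 7 cytosines in any library but none in at least 10, and was not tested. The largest difference at a single cytosine, at +375 (chr11, 98386998), came from values of 0 or 1 only, with 1 at days 12 and 20 of the experimental line and 0 in the other libraries that listed it (adjusted p = 0.519 by limma).

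**Figure D2:**
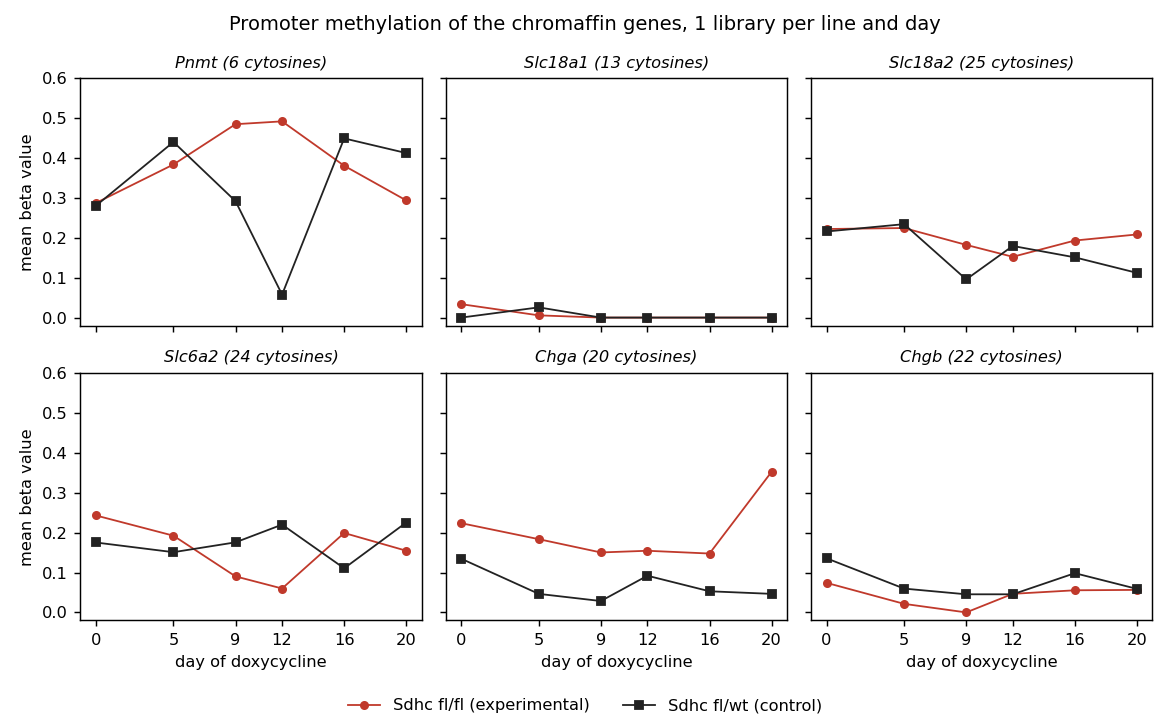
Mean beta value (y axis) of the 6 chromaffin promoters with listed cytosines against the day of doxycycline (x axis), with 1 point per library, circles for Sdhc fl/fl and squares for Sdhc fl/wt. *Chga* is the only promoter where the lines do not cross, and *Slc18a1* stays at or near 0 throughout.

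The vesicular monoamine transporters load catecholamines into granules, VMAT1 (*Slc18a1*) mainly in endocrine cells and VMAT2 (*Slc18a2*) mainly in neurons. Their promoters stood at different levels. The *Slc18a1* promoter (13 cytosines, from 382 to 492 bases downstream of the start, chr8:69088739-69090738 on the minus strand) had 0.00560 at experimental day 5, 0.0256 at control day 5, 0.0337 at experimental day 0 and 0 in the other 9 libraries. No difference was detectable at this level (adjusted p = 0.837 by limma). Among the libraries at 0, experimental day 9 listed 5 of the 13 cytosines and control day 12 listed 8.

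The *Slc18a2* promoter (25 cytosines, all listed in all 12 libraries, chr19:59259378-59261377) had 0.225, 0.182, 0.153, 0.193 and 0.209 in the experimental series and a lowest, median and highest value of 0.0958, 0.165 and 0.234 in the control series. The series overlapped, with means of 0.192 ± 0.0274 (SD, n = 5) and 0.165 ± 0.0555 (n = 6) and an adjusted p of 0.621 by limma. Before doxycycline the experimental line had 0.222 and the control line 0.216. Among its cytosines 14 were higher and 11 lower in the experimental series. The largest difference was at +355 (chr19, 59261233), where the experimental values were 0.216, 0.500, 0.345, 0.457 and 1 and the control values were 0.0476 at day 0 and 0 on the other 5 days. All experimental values lay above all control values, and at day 0, before doxycycline, the experimental line had 0.115. The mean difference of 0.496 missed the threshold (adjusted p = 0.0714 by limma, from 0.00588 without experimental day 20 to 0.285 over the alternatives). The neighbouring cytosine at +349 had a mean of 0.351 in the experimental against 0.0651 in the control series, for which limma gave an adjusted p of 0.166, and the cytosine at +271 went the other way with 0.0267 and 0.432 (adjusted p = 0.371 by limma).

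The gene bodies of the transporters were methylated in both lines. *Slc18a2* (11 cytosines, chr19:59261378-59296012) had the highest of the 8, with 0.826, 0.979, 0.932, 0.820 and 0.896 in the experimental series and 0.840 to 0.970 (median 0.853) in the control series. The *Slc18a1* gene body (10 cytosines, chr8:69037708-69088738) had 0.491, 0.401, 0.504, 0.522 and 0.572 in the experimental series and a control range of 0.336 to 0.656 (median 0.425). Both pairs of series overlapped, and neither passed (adjusted p = 0.902 and 0.671 by limma). The *Slc18a1* mean joins positions of different levels. The cytosines at +513 to +521 were 0 in every library that listed them. Those at +14018 to +14036 averaged 0.680 in the experimental against 0.419 in the control series, and those at +16739 to +16748 averaged 0.756 and 0.650. The cytosine at +16896, which control day 16 did not list, went the other way with 0.726 and 0.966 (adjusted p = 0.706 by limma). Control day 12, which gave the highest control value, listed 5 of the 10 cytosines and none of the 3 at 0.

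With the 4 *Slc18a1* gene body cytosines that all 12 libraries listed, the experimental series had 0.613, 0.666, 0.719, 0.728 and 0.863 and the control series ran from 0.481 to 0.615. The ranges then overlapped only between experimental day 5 and control day 5, with means of 0.718 ± 0.0932 (SD, n = 5) and 0.535 ± 0.0512 (n = 6). The adjusted p of 0.0565 by limma missed the threshold and was the lowest among the alternatives, the highest being 0.825. The day 0 values were 0.681 in the experimental line and 0.488 in the control line. The cytosine with the largest difference, at +14018 (chr8, 69075220), had 0.393, 0.407, 0.689, 0.821 and 0.794 in the experimental series against 0.351, 0.379, 0.234, 0.250, 0.519 and 0.425 in the control series. The 3 later experimental values exceeded every control value and the 2 earlier ones did not (adjusted p = 0.376 by limma).

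The noradrenaline transporter (*Slc6a2*) returns released noradrenaline to the cell. Its promoter (24 cytosines, chr8:92958970-92960969) had 0.192, 0.0904, 0.0600, 0.199 and 0.155 in the experimental series and a lowest, median and highest value of 0.111, 0.176 and 0.226 in the control series. The series overlapped, and the means of 0.139 ± 0.0619 (SD, n = 5) and 0.176 ± 0.0431 (n = 6) did not differ past the threshold (adjusted p = 0.563 by limma). At day 0 the experimental line was the higher one, with 0.243 against 0.175, where the control library listed 19 of the 24 cytosines. Control day 12 listed 6 of these 24 cytosines. Within the promoter, the 13 cytosines at +121 to +229 had a mean of 0.0637 in the experimental against 0.176 in the control series, while the 6 at +305 to +385 had 0.262 and 0.181. These groups of neighbouring cytosines were not tested, and both pairs of ranges overlapped. At day 0 the order was the opposite in both groups. The experimental line then had 0.367 and the control line 0.0769 at +121 to +229, and 0.178 and 0.389 at +305 to +385.

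The *Slc6a2* gene body (28 cytosines, chr8:92960970-93001667) had 0.609, 0.650, 0.566, 0.581 and 0.553 in the experimental series against 0.555, 0.678 and 0.747 as the lowest, median and highest control value. The experimental line was lower on 4 of 5 days, but the series overlapped (adjusted p = 0.425 by limma). Near the start the 5 cytosines at +812 to +833 had 0.305 in the experimental series and 0.331 in the control series, and the 2 at +28609 to +28621 had 0.951 and 0.967. The series did not overlap at 6 of the 210 chromaffin cytosines tested, against 2.08% of all cytosines, so this count is close to the background. Of these 6, 3 lay in this gene body and all 3 were lower in the experimental series. The cytosine at +22687 (chr8, 92983157) had 0.646, 0.0769, 0.484, 0.172 and 0.176 against 1, 0.828, 0.985, 0.763 and 0.859 in the 5 control libraries that listed it, the largest difference of any chromaffin gene cytosine (-0.576, adjusted p = 0.142 by limma). At day 0 the experimental line had 0.270 and the control line 1, so this difference was present before doxycycline. The cytosine at +33467 had 0.143, 0.241, 0.455, 0.382 and 0.167 against 0.636, 0.735, 0.792, 1, 0.554 and 0.839 (adjusted p = 0.212 by limma). There the experimental line had 0.571 at day 0, within the control range. The third, at +14187, averaged 0.286 and 0.637 (adjusted p = 0.425 by limma). At this cytosine the day 0 values were 0.46 in the experimental line, below every listed control value, and 0.765 in the control line.

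**Figure D3:**
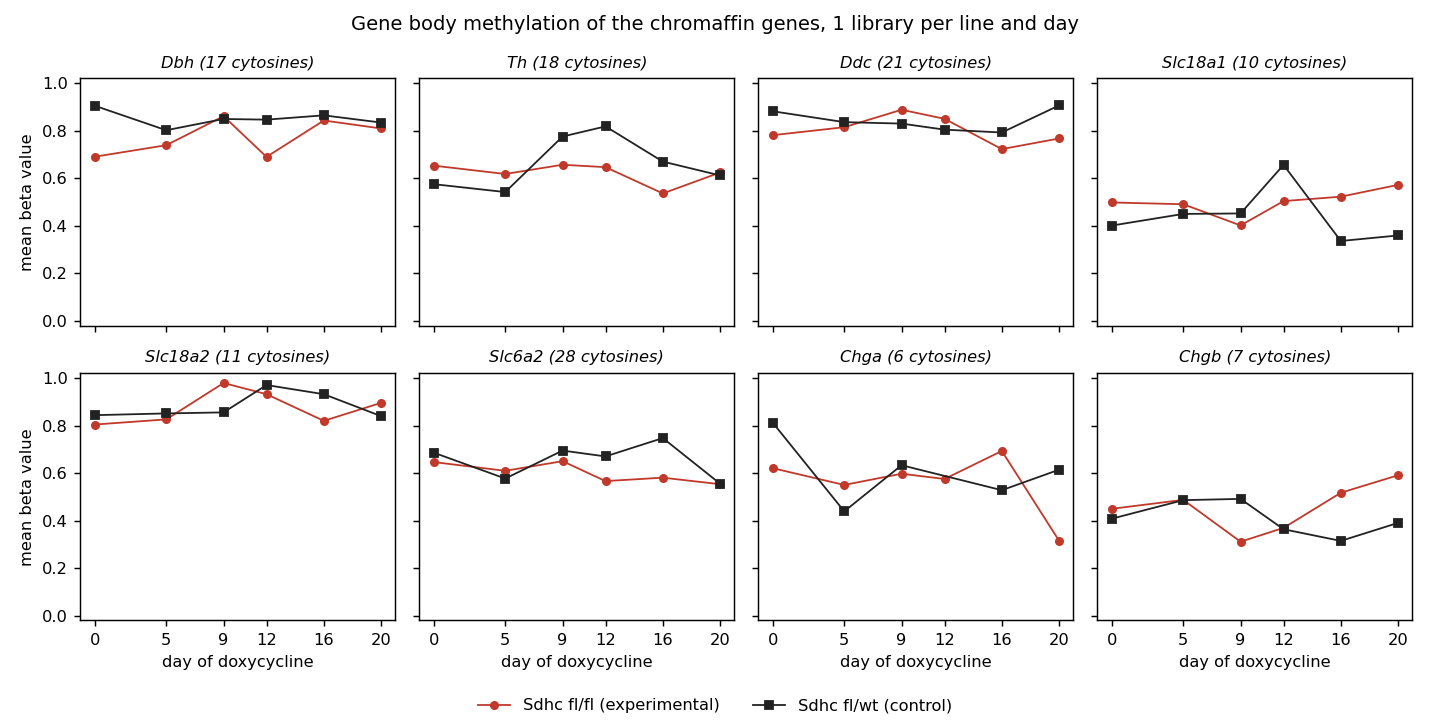
Mean beta value (y axis) of the 8 chromaffin gene bodies with listed cytosines against the day of doxycycline (x axis), with 1 point per library, circles for Sdhc fl/fl and squares for Sdhc fl/wt. The lines overlap in all 8, *Slc18a2*, *Dbh* and *Ddc* lie highest, and control day 12 has no point in *Chga*.

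Chromogranin A (*Chga*) is an acidic protein that drives the formation of dense core granules and is used as a serum marker of neuroendocrine tumours. Its promoter (20 cytosines, chr12:102553441-102555440) had 0.184, 0.150, 0.155, 0.148 and 0.353 in the experimental series. The control series had 0.0286, 0.0498 and 0.135 as its lowest, median and highest value. All 5 experimental values lay above all 6 control values, and the experimental line was higher on 5 of 5 days. The means were 0.198 ± 0.0878 (SD, n = 5) and 0.0669 ± 0.0393 (n = 6), and the difference in M-value was 1.72 ± 0.41 (SE), where the median over all promoters was 0.18. By limma the unadjusted p was 0.00171 and the adjusted p 0.0636, just above the threshold. The signed difference of 0.131 lay above that of 95.2% of all promoters, and its absolute size above that of 92.9%.

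At day 0 the *Chga* promoter had 0.224 in the experimental line and 0.135 in the control line, so the experimental line stood above all 6 control libraries before doxycycline was given. Relative to day 0, the mean of days 5 to 20 was lower by 0.0260 in the experimental line and by 0.0815 in the control line. Each line has 1 library at day 0, so neither change was tested.

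The experimental day 20 library listed 13 of the 20 *Chga* cytosines. The 6 from -20 to 0, which it lacked, had means of 0.0682 or less in the experimental against 0.107 or less in the control series. With the 12 cytosines that all 12 libraries listed, the experimental series had 0.282, 0.251, 0.228, 0.246 and 0.382 and the control series ran from 0.0417 to 0.153. The series again did not overlap, with means of 0.278 ± 0.0616 (SD, n = 5) and 0.0890 ± 0.0419 (n = 6), and the promoter passed the threshold (adjusted p = 0.0165 by limma). It also passed without control day 0 (0.0435) and with the experimental day 0 library added (0.0280), and without experimental day 20 it did not (0.103). Over all alternatives the adjusted p ranged from 0.0165 to 0.333. These 12 cytosines had 0.344 at day 0 in the experimental line and 0.125 in the control line.

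The difference was not spread evenly over the *Chga* promoter. In the window printed above, the 6 capitals G from -20 to 0 lie in an alternating GC and GT stretch and 3 of them, at -16, -10 and -6, were 0 in every library that listed them. The 2 capitals C farthest upstream, at -157 and -127, averaged 0.437 in the experimental against 0.133 in the control series. The cytosine at -157 had 0.486, 0.895, 0.410, 0.522 and 0.698 against 0, 0.0233, 0, 0.562, 0 and 0, so that control day 12 alone overlapped (adjusted p = 0.111 by limma). Downstream, the 5 cytosines at +133 to +176 averaged 0.149 and 0.0530, and that at +290 was 0 in every library that listed it.

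The 1 cytosine of the chromaffin genes that passed the threshold was at +37 of *Chga* (chr12, 102554978), the first of the last 3 capitals C of the printed window. It had 0.643, 0.455, 0.4, 0.375 and 1 in the experimental series and 0 in all 6 control libraries. The mean difference was 0.574, or 7.85 ± 1.21 (SE) in M-value (adjusted p = 0.0229 by limma). The experimental line had 0.538 at day 0, before doxycycline. The call was lost under 6 of 15 alternatives, 5 of which left out experimental day 5 (0.0579) or control day 0, 9, 16 or 20 (0.0505 to 0.0535), and the adjusted p ranged from 0.000233 to 0.238 over all alternatives. The next 2 cytosines, at +40 and +46, averaged 0.340 and 0.480 in the experimental series and 0.0600 and 0.300 in the control series, and neither passed (adjusted p = 0.524 and 0.719 by limma).

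**Figure D4:**
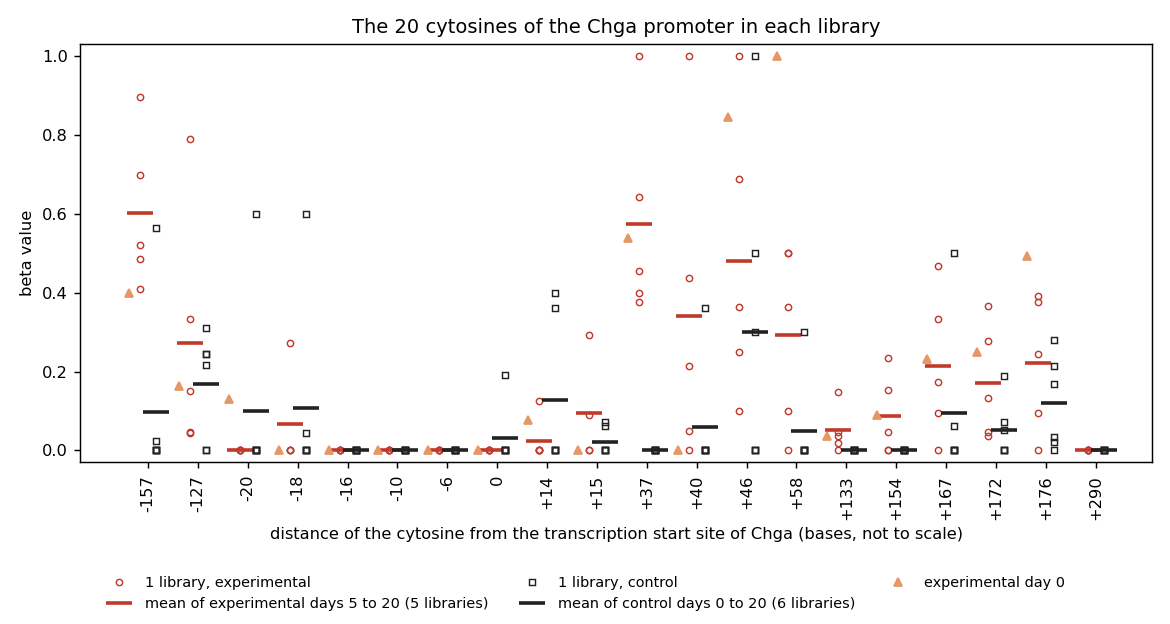
Beta value (y axis) of each of the 20 listed cytosines of the *Chga* promoter by distance from the start site (x axis, in order and not to scale), with open circles and squares for single experimental and control libraries, bars for the series means and triangles for experimental day 0. At +37 all 6 control libraries are at 0 and the 5 experimental libraries run from 0.375 to 1, whereas the cytosines from -16 to -6 are at 0 throughout.

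The *Chga* gene body (6 cytosines at +7821 to +7990, chr12:102555441-102565027) had 0.550, 0.597, 0.575, 0.693 and 0.315 in the experimental series. Control day 12 listed none of them and was left out of this value, and the other 5 control libraries had 0.812, 0.439, 0.633, 0.528 and 0.614. The series overlapped, and the difference did not pass (adjusted p = 0.750 by limma). Experimental day 20, the lowest, listed 2 of the 6 cytosines.

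Chromogranin B (*Chgb*) is a related granule protein. Its promoter (22 cytosines, all listed in all 12 libraries, chr2:132780142-132782141) had 0.0215, 0, 0.0466, 0.0555 and 0.0565 in the experimental series and 0.0455, 0.0594 and 0.136 as the lowest, median and highest control value. The experimental line was the lower one on 4 of 5 days and at day 0 (0.0742 against 0.136), the opposite order to *Chga*. The series overlapped, and the difference in M-value of -1.11 ± 0.52 (SE) did not pass (adjusted p = 0.321 by limma). The *Chgb* cytosine with the largest difference, at -55, averaged 0.0286 in the experimental against 0.333 in the control series (adjusted p = 0.719 by limma). There the control line had 1 at days 9 and 16 and 0 on its other days. The *Chgb* gene body (7 cytosines, chr2:132782142-132795079) had 0.487, 0.311, 0.369, 0.517 and 0.591 against a control range of 0.314 to 0.491 (median 0.399), and it did not pass (adjusted p = 0.726 by limma). Its cytosines went both ways, with 0.614 against 0.872 at +6016 (adjusted p = 0.319 by limma) and, as an untested pair, 0.633 against 0.498 at +2675 to +2719.

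**Figure D5:**
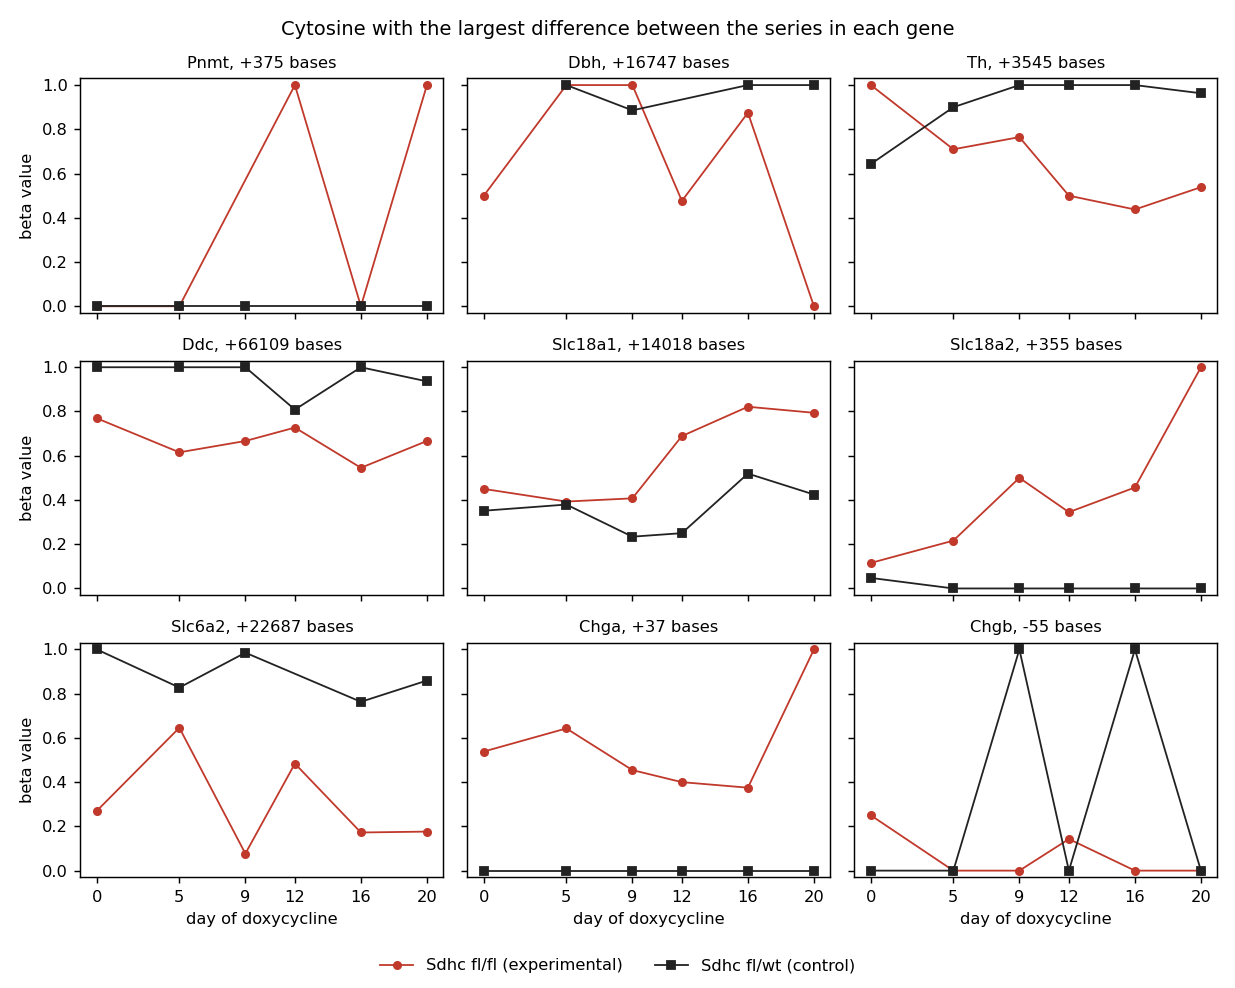
Beta value (y axis) against the day of doxycycline (x axis) at the cytosine with the largest difference between the series in each of the 9 genes, with its distance from the start site in the panel title, circles for Sdhc fl/fl and squares for Sdhc fl/wt. The series are apart in *Ddc*, *Slc18a2*, *Slc6a2* and *Chga*, of which *Chga* passed the threshold. The values of *Pnmt* in the experimental line and of *Chgb* in the control line jump between 0 and 1.

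The order of the promoters in the control series was *Pnmt* (0.322), *Slc6a2* (0.176), *Slc18a2* (0.165), *Chgb* (0.0740), *Chga* (0.0669) and *Slc18a1* (0.00427), and *Slc6a2* and *Slc18a2*, like *Chgb* and *Chga*, differed by less than their SD. All but *Slc18a1* lay above the median control promoter of 0.0345, and 5 of the 6 were under 0.2, as were 72.4% of all promoters. In the experimental series *Chga* (0.198) stood second by its mean, next to *Slc18a2* (0.192). That mean includes day 20 at 0.353, and by the median *Chga* (0.155) lay below *Slc18a2* (0.193). The control gene bodies ranged from 0.409 (*Chgb*) to 0.882 (*Slc18a2*) around the median of 0.618 for all gene bodies. Of the 6 promoters 3 were higher and 3 lower in the experimental series, where 62.1% of all promoters were higher, and of the 8 gene bodies 3 were higher and 5 lower, where 57.9% of all were higher.

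Other genes of the chromaffin pathway were taken from 4 lists of 43 genes in all, of which 31 promoters and 33 gene bodies could be tested. Of the promoters 1 passed as higher and 0 as lower, beside 1.51% and 0.525% of all promoters, and of the gene bodies 0 passed as higher and 1 as lower, beside 1.57% and 0.64% of all gene bodies. The median difference was 0.00157 for the promoters and 0.00404 for the gene bodies, against 0.00235 and 0.00667 over all features. None of 9 promoters passed in the list of cofactor synthesis and dopamine handling (median difference -0.00258), and none of 5 among the granins and peptide-processing enzymes (0.0142), all 5 of which were higher in the experimental series. The promoter that passed belonged to the list of regulated exocytosis (1 of 6 tested, median 0.0394), and none of 11 passed among the sympathoadrenal regulators (0.00157).

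The promoter that passed was that of *Rab3a*, a small GTPase of secretory vesicles (44 cytosines, chr8:70753203-70755202). It had 0.291, 0.292, 0.348, 0.288 and 0.356 in the experimental series and 0.0785, 0.108, 0.138, 0.0535, 0.0967 and 0.117 in the control series. All experimental values lay above all control values (0.315 ± 0.0340, SD, n = 5, against 0.0986 ± 0.0296, n = 6, adjusted p = 0.00601 by limma). The day 0 libraries had 0.274 and 0.0785, a difference of 0.195 before doxycycline. The call was lost under 3 of 25 alternatives, among them a window of 500 bp either side of the start, where the M-value difference was 0.08 in place of 2.02 (adjusted p = 0.973 by limma), and medians over cytosines (0.383), and the adjusted p was at least 0.000115. The gene body that passed was that of *Sox10*, a transcription factor of the neural crest (43 cytosines, chr15:79154913-79163990). Its experimental values of 0.291, 0.433, 0.270, 0.325 and 0.352 lay below its control values of 0.658, 0.488, 0.581, 0.514, 0.530 and 0.572 (0.334 ± 0.0637, SD, n = 5, against 0.557 ± 0.0607, n = 6, adjusted p = 0.0187 by limma). At day 0 the lines had 0.294 and 0.658. Its call was lost under 3 of 25 alternatives, among them the cytosines listed in all 12 libraries (adjusted p = 0.335 by limma) and leaving out experimental day 5 (0.0509), and the adjusted p was at least 0.00586.

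Among 13671 other promoters with at least 5 cytosines, those whose values followed the *Chga* promoter most closely over the 12 libraries were *Serpine2* on chromosome 1 (Pearson's r = 0.966), *Ryr2* on chromosome 13 (0.938) and *Ptpn2* on chromosome 18 (0.934). *Serpine2* encodes a serine protease inhibitor, *Ryr2* a calcium release channel and *Ptpn2* a tyrosine phosphatase. The 12 points of each correlation come from the same 2 lines and libraries and include experimental day 20, the highest in all 4 promoters, with 0.206 in *Serpine2*, 0.192 in *Ryr2* and 0.00915 in *Ptpn2*. The values of *Ptpn2* ranged from 0 to 0.00915 and were near 0 throughout.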

How the data were processed

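RRBS libraries from 2 iMEF lines at 6 time points were analysed. Per the study's methods and the labels, paired-end reads were mapped to mm10 by the authors using Bismark, and the deposited value of a CpG cytosine is the percent of its reads that were called methylated. Version numbers are not given in the sources used here. The authors' later filtering in RnBeads is not part of these values. Without read counts the planned count model was replaced by its stated alternative, limma on M-values.

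Each percent was divided by 100. Cytosines of both strands were kept as separate values and the sex chromosomes were left out. Gene spans were those of RefSeq GRCm38.p6, with strand from the RefSeq promoter table or, matched by symbol, from GENCODE on an older assembly, whose coordinates were not used. The same strand was given by both sources for 15489 of 15532 symbols. Exon positions of this build were not used. A region needed 3 cytosines, and its value was their mean, so libraries that list different cytosines can differ for that reason. X-linked genes of the lists were not tested.

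The genes and lists were chosen with earlier results of these data known. Named were the 9 genes, pathway genes past the threshold, each gene's cytosine with the largest difference and any past the threshold, and the 3 promoters most like that of the gene with the largest limma t. Cytosines outside this rule were named after their values were seen. The fits were first tested on simulated data with known changes, drawn as independent normal M-values without missing libraries. That test did not cover values at either end of the beta scale, missing cytosines or repeated time points of a single line. Days shared by the lines did not pair the libraries. Alternatives covered offsets, the beta scale, sets of cytosines, windows, day 0 libraries, the day as a block, and leaving out single libraries. Software was R 4.3.3, limma 3.58.1, Python 3.11.15, numpy 2.4.6, pandas 2.3.3 and matplotlib 3.10.9.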

Additional observations from a re-analysis of the deposited data

Results flagged for a closer look

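In 4 of 28 groups of 5 or 6 libraries of the chromaffin regions, 1 library stood far from the others by Dixon's criterion, which chance meets in about 1 in 20 groups. The *Chga* promoter of experimental day 20 had 0.353, against 0.148 to 0.184 on the other 4 days, and that library listed 13 of the 20 cytosines. The *Slc18a1* gene body of control day 12 had 0.656, against 0.336 to 0.452, and that library listed 5 of the 10 cytosines. The *Slc18a1* promoter had 0.00560 at experimental day 5 and 0.0256 at control day 5, where every other library of the series was at 0, so that any value above 0 meets the criterion and the rate of 1 in 20 does not apply to these 2 groups. The part of the listed cytosines in these values was not tested beyond the fit on cytosines listed in all 12 libraries, where the *Chga* promoter of experimental day 20 had 0.382 against 0.228 to 0.282 and the *Slc18a1* gene body of control day 12 had 0.570, within the range of the other control libraries.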

How the results depend on the processing

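Of 348 values of the chromaffin regions under the alternatives, 335 kept their direction and side of the threshold, as did 121 of 132 values of 9 single cytosines of these genes, and 13 of the 14 regions passed under no alternative. The exception was the *Chga* promoter, which made 1 chromaffin promoter call with cytosines listed in all 12 libraries, without control day 0 and with experimental day 0 added. For the regions, the same fit without control day 0 entered these counts more than once. A changed minimum number of cytosines leaves a region's difference as it was. The 9 single cytosines had been chosen in these data for their largest difference, so their kept direction is no separate support. The sign reversed for the *Slc18a1* promoter with experimental day 0 added (M-value difference 0.16) and without control day 5 (0.13, in a range from -0.31 with 1 library left out), for the *Slc18a2* gene body with medians over cytosines (-0.63) and without experimental day 9 (-0.25, in a range up to 0.54 with 1 library left out), for the *Chga* gene body over the whole gene (0.82), and for the *Chgb* gene body with cytosines listed in all 12 libraries (-0.023) and over the whole gene (-0.12). None of these passed the threshold under any setting, and the cause was not tested. Over all genes, the 321 promoter calls became 129 with an offset of 0.001, 26 with medians, 212 with varying cytosines only, 183 without control day 0, 525 with experimental day 0 added and 94 to 381 with 1 library left out. The 414 gene body calls became 630 on beta values, 743 with cytosines listed in all 12 libraries, 28 with medians, 729 with experimental day 0 added and 196 to 572 with 1 library left out. Calls among chromaffin cytosines numbered 2 with an offset of 0.05, 3 on beta values and 0 to 3 with 1 library left out. Chromaffin promoters called with 1 library left out numbered 0 to 1, and gene bodies 0. With day as a replicate block, 1 promoter, 7 gene bodies and 0 chromaffin cytosines were called, and the calls of the *Chga* cytosine at +37 (adjusted p = 0.238 by limma), the *Rab3a* promoter (0.131) and the *Sox10* gene body (0.0935) were lost. The day numbers did not pair the libraries, since same-day correlations of the deviations over promoters were -0.0210 to 0.0186 and 1 of 5 experimental libraries was closest to its own day. Depth is unknown, which leaves single values of 0 or 1 without an error.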
